A study of Mus musculus with 40 samples.

Results

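A set of 9 genes of WNT signalling and early mesendoderm was followed through naive and epiblast-like mouse cells that lack lamins, the lamin B receptor (LBR) or both. They are *Wnt5a*, *Wnt8a*, *Wnt3*, *T*, *Eomes*, *Mixl1*, *Foxa2*, *Lhx1* and *Axin2*, chosen by name from the 56748 genes of the count table. All 9 were found in it, and all 9 were among the 23399 genes that passed the filter on low counts.

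RNA-seq had been made from XY mouse embryonic stem (mES) cells and from epiblast-like cells (EpiLCs) derived from them, to ask what the nuclear lamina does for gene expression. There were 8 wild-type (WT) libraries and 4 libraries of each mutant at each stage, which gives 8 groups and 40 libraries, and each library came from a single well. The naive mES cells were kept without serum or feeders in 3 µM CHIR99021, an inhibitor of the kinase GSK3, 1 µM PD0325901, an inhibitor of MEK, and LIF. The EpiLCs were collected 48 h after transfer to 20 ng/mL FGF and 12 ng/mL activin A, with no GSK3 inhibitor listed, and the mES cells were collected 48 h after seeding.

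LBRKO cells lacked LBR, an inner nuclear membrane protein that binds heterochromatin, and more than 1 such clone had been made, with no clone named for any library in the labels. TKO cells lacked the lamins encoded by *Lmna*, *Lmnb1* and *Lmnb2*. QKO cells were TKO cells in which *Lbr* had also been disrupted, and they were a single clone, so that a property of this clone and the loss of both cannot be told apart. The TKO line and a littermate WT line came from another laboratory. Extra copies of chromosome 8 were described for TKO cells and of chromosomes 6 and 8 for some WT cells, and none of the 9 genes lies on either chromosome. The other genes named below were not checked for this.

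WNT ligands are secreted lipid-modified proteins that bind Frizzled receptors and LRP coreceptors. In the canonical branch this stops a complex of AXIN, APC and GSK3 from marking beta-catenin for destruction, and beta-catenin then activates genes together with TCF and LEF proteins. A GSK3 inhibitor has the same effect on beta-catenin with no ligand at all. In the mouse embryo *Wnt3* is needed for the primitive streak, where the transcription factors encoded by *T*, *Eomes* and *Mixl1* mark the cells that become mesoderm and endoderm, and *Foxa2* and *Lhx1* mark its anterior derivatives. WNT8A is another ligand of the canonical branch, WNT5A is best known for signalling through ROR receptors without beta-catenin, and *Axin2* is a target gene whose product restrains the pathway.

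The genes lie on 7 chromosomes of GRCm39 in the deposited table. *Wnt5a* is at chr14:28226707-28249405, *Wnt8a* at chr18:34675366-34681326 and *Wnt3* at chr11:103664976-103708783, all on the plus strand.

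*T* is at chr17:8653255-8661328, *Eomes* at chr9:118307280-118315200 and *Axin2* at chr11:108811175-108841609, likewise on the plus strand. *Mixl1* at chr1:180520608-180524599, *Foxa2* at chr2:147884797-147888889 and *Lhx1* at chr11:84409110-84416361 are on the minus strand. Antisense genes overlap *Wnt5a*, *Eomes* and *Axin2* in the annotation, and they had at most 3, 26 and 30 counts in any library.

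The stretch of 250 bases before the start of each gene's canonical transcript (GENCODE M39, GRCm39) was searched on both strands for the letters CTTTGAT or CTTTGAA, the core that TCF and LEF proteins bind. They were present in this stretch for 4 of the 9 genes, *Wnt8a*, *T*, *Mixl1* and *Axin2*, and in 6.96% of all 23246 windows. Of 17 other known target genes of beta-catenin, 4 held them. The letters TCACACC, the core bound by T-box proteins such as T and EOMES, were in 3.2% of all windows and in none of the 9. A match of letters is a description of the sequence and not a binding site. The windows of *T*, *Lhx1* and *Axin2* overlap annotated exons. That of *Axin2* lies within the span of the gene given above, since its canonical transcript starts further in. The matches of *T* and *Axin2* are shown because these genes are read below with the pathway's targets, and that of *Mixl1* is shown beside them. They are given on the strand of the gene with the searched letters in capitals, read on the opposite strand before *T*. The stretches of *T*, *Mixl1* and *Axin2* are chr17:8653009-8653038, chr1:180524643-180524672 and chr11:108811605-108811634.
T: ctgctcggtacTTCAAAGggtgtcccgccc
Mixl1: tgcacccacgcCTTTGATggcgccgccgcc
Axin2: tcggctcgcgcCTTTGAAgtgcacagttaa

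The windows of *Wnt5a* and *Eomes*, at chr14:28226245-28226494 and chr9:118307030-118307279, held neither motif. They are shown because these genes moved most clearly in QKO cells.
Wnt5a: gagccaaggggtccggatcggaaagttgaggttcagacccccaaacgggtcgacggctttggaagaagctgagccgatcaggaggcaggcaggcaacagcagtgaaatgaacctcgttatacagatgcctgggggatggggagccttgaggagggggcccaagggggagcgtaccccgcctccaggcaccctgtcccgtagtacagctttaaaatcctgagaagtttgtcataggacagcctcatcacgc
Eomes: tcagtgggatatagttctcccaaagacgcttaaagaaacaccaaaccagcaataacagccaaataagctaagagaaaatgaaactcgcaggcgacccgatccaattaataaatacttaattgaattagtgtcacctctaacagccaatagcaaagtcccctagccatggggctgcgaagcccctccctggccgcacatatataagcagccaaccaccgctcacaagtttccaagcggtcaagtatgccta

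Levels are given in CPM, the counts of a gene per M (mega) of library counts, after scaling between libraries by the trimmed mean of M-values (TMM). Gene counts summed to between 22.6 and 48.9 M per library. The cells matched their labels at both ends of the transition, since 11 of 12 naive pluripotency genes were lower and all 11 formative and primed epiblast genes higher in WT EpiLCs than in WT mES cells. *Lmnb1* was at 481 to 546 CPM in WT mES cells and at most 15.5 CPM in any TKO or QKO library, and *Lmnb2* at 93.2 to 116 CPM against at most 4.71 CPM. *Lmna* transcripts were still present, at 14.1 to 17.0 CPM in TKO and 17.1 to 21.0 CPM in QKO mES cells against 45.1 to 71.5 CPM in WT. In EpiLCs *Lmna* was at 9.28 to 13.0 CPM in WT, 7.36 to 8.34 CPM in TKO and 6.95 to 9.43 CPM in QKO, which overlapped WT. *Lbr* transcripts were still present in the knockouts, at 145 to 274 CPM in LBRKO mES cells and 236 to 239 CPM in QKO mES cells against 347 to 407 CPM in WT mES cells. In EpiLCs *Lbr* was at 364 to 513 CPM in WT, 252 to 291 CPM in QKO and 196 to 403 CPM in LBRKO, which overlapped WT. Replicates were separate wells, so the tests measure the spread between libraries of a group. In the main fit that spread holds the differences between wells and also the difference between the sets of WT libraries described below. The fit covers all groups together, so the spread of the WT libraries also enters comparisons between mutants. In bulk RNA, fewer expressing cells and less RNA per cell cannot be told apart.

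The WT mES libraries did not form a single group for genes of this pathway. *Axin2* stood at 47.4, 41.8, 44.9 and 45.4 CPM in WT mES replicates 1 to 4 and at 129, 120, 109 and 102 CPM in replicates 5 to 8. *T* stood at 0.217, 0.218, 0.238 and 0.327 CPM in replicates 1 to 4 and at 4.21, 3.46, 3.58 and 4.41 CPM in replicates 5 to 8. *Wnt8a* was at 0 to 0.131 CPM in the former and 0.127 to 0.339 CPM in the latter. So the same genotype in the same medium gave *Axin2* and *T* in ranges that did not overlap.

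Other known targets of beta-catenin were higher with them in replicates 5 to 8. *Sp5*, a transcription factor gene induced by the pathway, averaged 16.8 CPM in WT mES replicates 1 to 4 and 95.8 CPM in replicates 5 to 8. *Cdx1* averaged 12.5 and 44.4 CPM and *Lef1* 1.31 and 7.57 CPM in the same order. The libraries also differed in depth, with 27.7 to 33.1 M gene counts in replicates 1 to 4 and 39.4 to 46.6 M in replicates 5 to 8, and the labels name no batch. The LBRKO libraries were of the deeper kind at 39.7 to 48.1 M, and the TKO and QKO libraries of the shallower kind at 22.6 to 33.6 M. The part of depth in these results was not tested. Comparisons were made with all 8 WT libraries, and where replicates 1 to 4 or replicates 5 to 8 alone changed a call, the value with them follows.

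**Figure D1:**
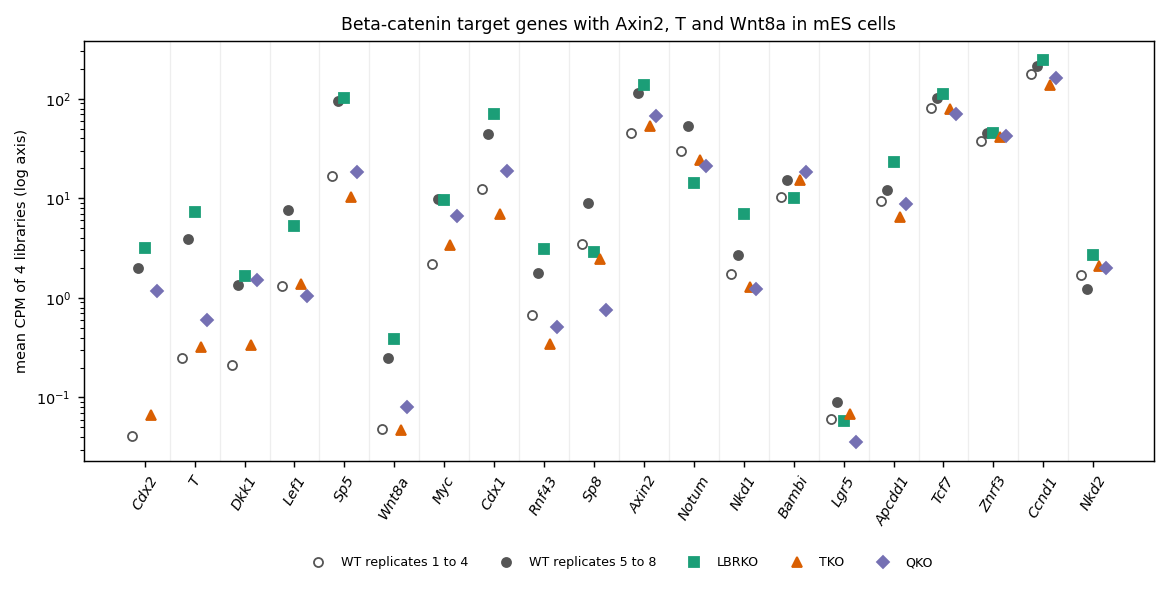
Mean level of each beta-catenin target gene and of Axin2, T and Wnt8a in mES cells (CPM, log axis, mean of 4 libraries), with the genes ordered by the ratio of WT replicates 5 to 8 (filled circles) to WT replicates 1 to 4 (open circles). For T, Sp5, Cdx1 and Axin2, TKO (triangles) and QKO (diamonds) sit nearer to WT replicates 1 to 4, and LBRKO (squares) sits above WT replicates 5 to 8.

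*Wnt3* was the ligand that came on with differentiation. In WT mES cells it was between 0.0484 and 0.327 CPM with a median of 0.11 CPM, and in WT EpiLCs between 4.36 and 7.14 CPM with a median of 5.51 CPM. Every EpiLC library of every genotype was above every mES library. In WT cells the difference was 5.30 ± 0.24 on the log2 scale (SE, n = 8 and 8, edgeR adjusted p = 1.76e-22), a 39.4-fold increase. It was 4.55 within WT replicates 1 to 4 and 6.05 within replicates 5 to 8.

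LBRKO EpiLCs held less *Wnt3* than WT EpiLCs. The LBRKO libraries were at 2.61, 2.48, 2.03 and 3.58 CPM, all below the lowest WT library. The difference was -1.05 ± 0.22 (edgeR adjusted p = 0.000344), a 2.08-fold decrease. It was -0.79 against WT replicates 1 to 4 (adjusted p = 0.00796) and -1.27 against replicates 5 to 8 (adjusted p = 2.23e-05), and it fell just short of 2-fold without LBRKO EpiLC replicate 3 (-0.94) or WT EpiLC replicate 8 (-0.99). TKO EpiLCs, at 5.91, 6.07, 6.16 and 5.66 CPM, and QKO EpiLCs, at 4.00, 4.83, 5.50 and 5.10 CPM, lay within the WT range but for 1 QKO library below it. In QKO mES cells *Wnt3* differed from WT by 0.79 ± 0.39, which did not pass the test (adjusted p = 0.0974). It passed against replicates 5 to 8 (1.33, adjusted p = 0.00929) and not against replicates 1 to 4 (0.32, adjusted p = 0.573).

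*Wnt8a* also rose with differentiation, and it rose further where lamins were missing. WT mES cells were between 0 and 0.339 CPM with a median of 0.129 CPM, and WT EpiLCs between 0.421 and 0.852 CPM with a median of 0.548 CPM. TKO EpiLCs were at 1.32, 1.56, 0.994 and 1.67 CPM, and QKO EpiLCs at 2.45, 2.97, 3.54 and 4.20 CPM. WT, TKO and QKO EpiLCs thus formed 3 ranges that did not overlap, in that order. LBRKO EpiLCs, at 0.204, 0.511, 0.502 and 0.596 CPM, overlapped the WT libraries.

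Against WT EpiLCs *Wnt8a* was higher by 1.26 ± 0.35 in TKO (edgeR adjusted p = 0.00999) and by 2.50 ± 0.33 in QKO EpiLCs (adjusted p = 2.54e-08), or 2.39-fold and 5.65-fold. QKO exceeded TKO EpiLCs by 1.24 ± 0.39 (adjusted p = 0.00941). In LBRKO EpiLCs the difference was -0.35 ± 0.38 (adjusted p = 0.551). Neither set of WT libraries ended these calls.

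In mES cells the *Wnt8a* result depended on the WT libraries. LBRKO mES cells were at 0.298, 0.299, 0.382 and 0.551 CPM, above every WT library of replicates 1 to 4 and overlapping replicates 5 to 8. The difference was 1.23 ± 0.42 against all 8 (edgeR adjusted p = 0.0266), 2.88 against replicates 1 to 4 (adjusted p = 0.000114) and 0.59 against replicates 5 to 8 (adjusted p = 0.348). The call was also lost without LBRKO mES replicate 3 or 4 or WT mES replicate 2 or 3, with adjusted p between 0.0512 and 0.121. TKO mES cells held 6 *Wnt8a* counts in 4 libraries, QKO mES cells 9 and WT replicates 1 to 4 also 6. Against all 8 WT libraries neither difference passed the test, at -1.62 ± 0.65 in TKO (adjusted p = 0.0723) and -0.96 ± 0.60 in QKO cells (adjusted p = 0.199). Against replicates 5 to 8 both were called lower, at -2.27 (adjusted p = 0.00236) and -1.61 (adjusted p = 0.0133). Against replicates 1 to 4 they were 0.04 (adjusted p = 0.99) and 0.69 (adjusted p = 0.473).

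*Wnt5a* behaved in the opposite way at the 2 stages in QKO cells. In mES cells the WT libraries ran from 0.158 to 0.805 CPM with a median of 0.49 CPM. LBRKO mES cells were at 0.192, 0.069, 0.0849 and 0.025 CPM and TKO mES cells at 0.0661, 0.0714, 0.118 and 0.110 CPM. QKO mES cells had 1 count in each of replicates 2 and 4 and none in the others. All 3 mutants were thus low, and only the highest LBRKO library reached into the WT range.

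The fall of *Wnt5a* in mES cells was -2.34 ± 0.43 in LBRKO (edgeR adjusted p = 5.26e-05) and -2.38 ± 0.47 in TKO cells (adjusted p = 0.000154), 5.06-fold and 5.22-fold. For QKO the 2 counts against 145 in WT gave a ratio of 27.5, with a 95% interval of 7.48 to 229 that covers counting error only. Against the 2 sets of WT libraries the differences were -2.35 and -2.32 in LBRKO and -2.40 and -2.37 in TKO cells. *Wnt5a* in QKO and TKO mES cells differed by -2.15, which did not pass the test (adjusted p = 0.0828).

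In EpiLCs *Wnt5a* ran from 0.291 to 0.764 CPM in WT with a median of 0.48 CPM, and the QKO libraries stood at 2.77, 3.07, 3.57 and 2.38 CPM. LBRKO EpiLCs were at 0.363, 0.0766, 0.334 and 0.192 CPM, and TKO EpiLCs at 0.265, 0.107, 0.115 and 0.363 CPM. Every QKO EpiLC library was above every other library of the series, while no LBRKO or TKO EpiLC library was above 0.363 CPM.

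QKO EpiLCs exceeded WT EpiLCs by 2.55 ± 0.31 (edgeR adjusted p = 2.92e-09), 5.84-fold. LBRKO and TKO EpiLCs were lower by 1.03 ± 0.37 (adjusted p = 0.0371) and 1.21 ± 0.41 (adjusted p = 0.0401). These 2 calls were weak. Against WT replicates 1 to 4 they were at adjusted p = 0.163 and 0.193, and leaving out any of 6 and any of 7 single libraries also ended them. In WT cells the difference of *Wnt5a* between the stages was 0.02 ± 0.28 (adjusted p = 0.948).

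**Figure D2:**
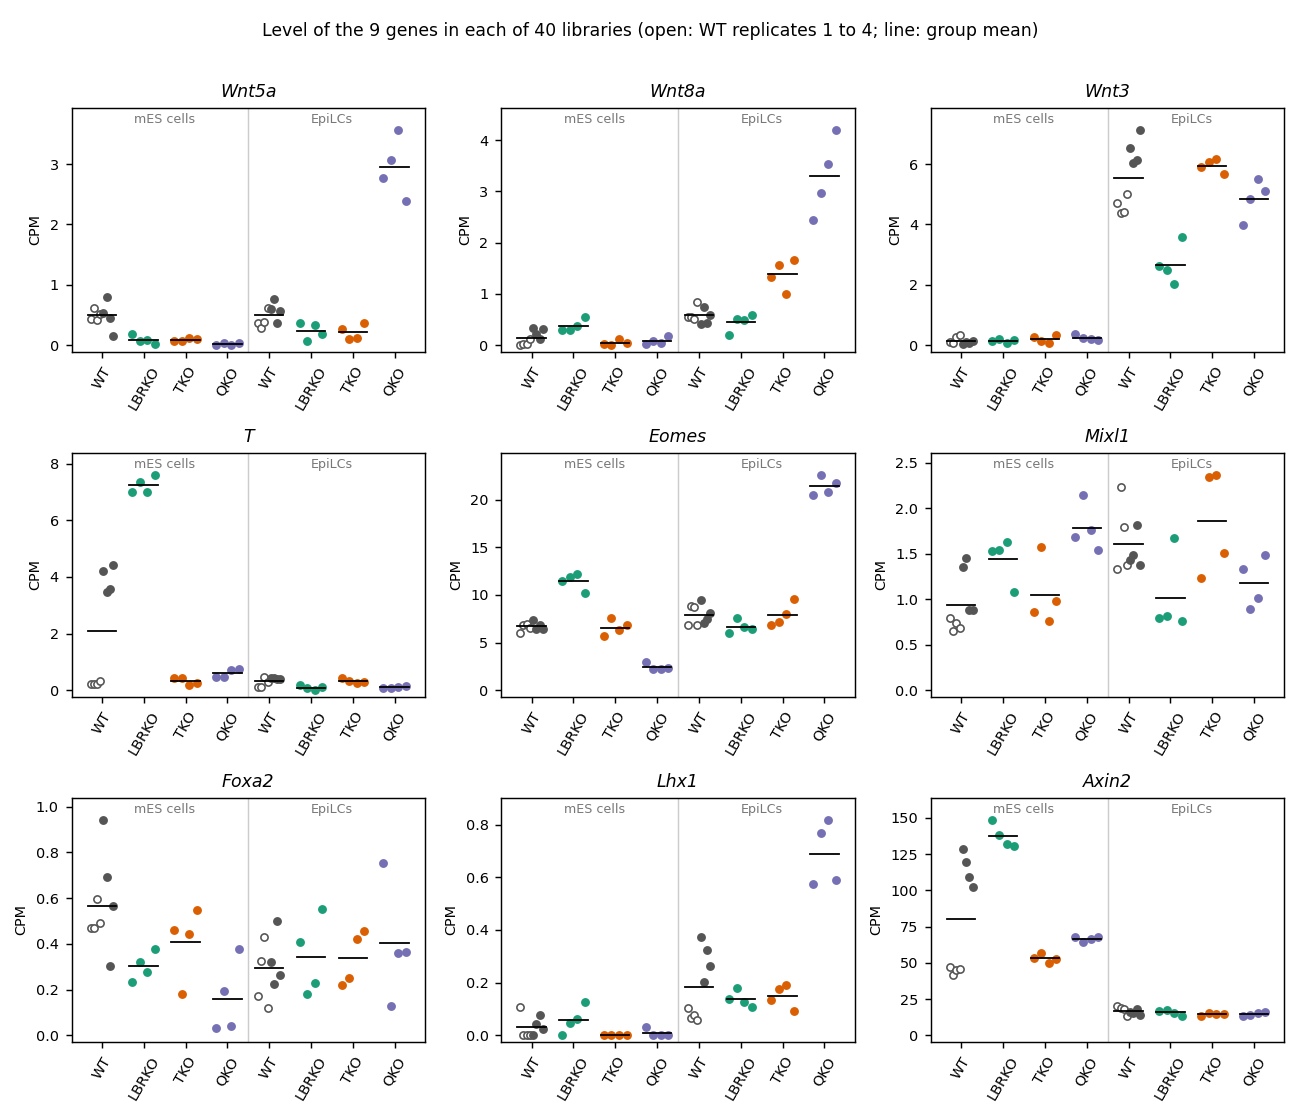
Level of each of the 9 genes (CPM, linear axes from 0) in the 8 groups, with a point for each library, a line at the group mean and open points for WT replicates 1 to 4. The QKO EpiLC points stand above all others for Wnt5a, Wnt8a, Eomes and Lhx1, and the WT mES points of T and Axin2 fall into separate clusters.

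*Axin2*, the pathway's feedback target, was the most abundant of the 9 in mES cells, at 14.5 ± 6.95 CPM per kb of exon in WT (SD, n = 8) against 1.61 ± 0.104 for *Eomes*, the next. It fell to 3.04 ± 0.446 CPM per kb in WT EpiLCs, whose medium lists no GSK3 inhibitor. The stage and the change of medium cannot be told apart here. *Axin2* in WT EpiLCs lay between 13.6 and 20.3 CPM and was below every mES library of every genotype. The difference was -2.26 ± 0.17 (edgeR adjusted p = 2.65e-15), or -1.34 within replicates 1 to 4 and -2.87 within replicates 5 to 8.

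Across mutant mES cells *Axin2* was 149, 138, 132 and 131 CPM in LBRKO, 53.4, 56.7, 50.0 and 52.5 CPM in TKO and 67.5, 64.3, 66.7 and 67.6 CPM in QKO. LBRKO was above every WT library. TKO and QKO fell into the gap between the WT sets, above replicates 1 to 4 and below replicates 5 to 8. Against all 8 WT libraries the differences were 0.78 ± 0.19 in LBRKO, -0.59 ± 0.20 in TKO and -0.27 ± 0.20 in QKO cells, none of them 2-fold. LBRKO passed 2-fold against replicates 1 to 4 (1.62, adjusted p = 3.35e-17) but not against replicates 5 to 8 (0.26, adjusted p = 0.014). TKO was 0.24 against replicates 1 to 4 (adjusted p = 0.0293) and was called lower against replicates 5 to 8 (-1.11, adjusted p = 3.51e-13). QKO turned from 0.57 (adjusted p = 4.53e-07) to -0.79 (adjusted p = 3.62e-10) in the same order. In EpiLCs the mutants were between 13.3 and 17.1 CPM and overlapped WT, with differences of -0.09, -0.20 and -0.20 for LBRKO, TKO and QKO (adjusted p of at least 0.453).

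*T*, also known as Brachyury, followed *Axin2* in mES cells. LBRKO mES cells were at 6.99, 7.33, 7.0 and 7.61 CPM, TKO at 0.429, 0.428, 0.177 and 0.256 CPM and QKO at 0.455, 0.460, 0.707 and 0.755 CPM. LBRKO was above all WT libraries, TKO overlapped WT replicates 1 to 4, and QKO lay between the sets. Across the 40 libraries *T* and *Axin2* had a Pearson r of 0.815 for log2(CPM + 0.1), the highest positive value of any pair among the 9. *Wnt8a* and *Lhx1* were close to it at 0.802, and *Wnt3* and *Axin2* were at -0.926. Stage and the WT sets are shared by both genes of a pair in these values.

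Against all 8 WT mES libraries *T* was higher by 1.77 ± 0.46 in LBRKO (edgeR adjusted p = 0.00371), lower by 2.72 ± 0.64 in TKO (adjusted p = 0.00147) and lower by 1.83 ± 0.59 in QKO cells (adjusted p = 0.0105). The direction of the TKO and QKO results turned with the WT libraries used. Against replicates 1 to 4 the TKO value was 0.35 (adjusted p = 0.648) and the QKO value 1.23 (adjusted p = 0.0097), whereas against replicates 5 to 8 they were -3.60 (adjusted p = 1.3e-11) and -2.72 (adjusted p = 5.98e-10). LBRKO was higher in every case, by 4.83 against replicates 1 to 4 (adjusted p = 3.97e-13) and by 0.89, less than 2-fold, against replicates 5 to 8 (adjusted p = 0.00508). In fits of the 2 compared groups alone the LBRKO call was lost (1.74, adjusted p = 0.0683), as was the QKO call (-1.85, adjusted p = 0.0824).

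In EpiLCs *T* was low in all genotypes. WT libraries ran from 0.103 to 0.468 CPM with a median of 0.403 CPM. LBRKO EpiLCs were at 0.182, 0.0766, 0 and 0.106 CPM, TKO at 0.441, 0.320, 0.268 and 0.303 CPM and QKO at 0.072, 0.0959, 0.0982 and 0.140 CPM. All groups overlapped WT, and the differences did not pass the test in LBRKO (-1.87 ± 0.80, edgeR adjusted p = 0.0812), TKO (-0.05 ± 0.69, adjusted p = 0.978) or QKO cells (-1.69 ± 0.85, adjusted p = 0.0886). Against either set of WT libraries alone *T* did pass as lower in LBRKO and QKO EpiLCs, at -1.40 and -2.17 in LBRKO and -1.21 and -1.98 in QKO, with adjusted p of at most 0.045. QKO and TKO EpiLCs differed in *T* by -1.64 ± 0.97 (adjusted p = 0.178), and this passed in the fits with either set (adjusted p = 0.00625 and 0.00211). In WT the stage difference of *T* was -2.63 ± 0.47 (adjusted p = 5.25e-06), -3.21 within replicates 5 to 8 and -0.04 within replicates 1 to 4 (adjusted p = 0.953).

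*Eomes*, a T-box factor gene of the early streak and of definitive endoderm, moved in opposite directions in QKO cells of the 2 stages. WT mES cells ran from 6.01 to 7.40 CPM with a median of 6.73 CPM, with no gap between the WT sets. LBRKO mES cells were at 11.5, 11.8, 12.2 and 10.2 CPM, TKO at 5.71, 7.53, 6.28 and 6.79 CPM and QKO at 2.92, 2.26, 2.24 and 2.37 CPM. QKO was thus below, and LBRKO above, every WT library.

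*Eomes* in QKO mES cells was lower by 1.45 ± 0.11 (edgeR adjusted p = 4.48e-14), 2.73-fold, and in LBRKO mES cells higher by 0.77 ± 0.09 (adjusted p = 2.64e-08), 1.71-fold and so under the 2-fold threshold. In TKO the difference did not pass the test (-0.03 ± 0.10, adjusted p = 0.896). In EpiLCs the order was another. WT ran from 6.87 to 9.50 CPM with a median of 7.78 CPM, LBRKO was at 6.02, 7.53, 6.63 and 6.47 CPM, TKO at 6.84, 7.17, 7.95 and 9.57 CPM and QKO at 20.4, 22.6, 20.8 and 21.8 CPM. QKO EpiLCs exceeded WT by 1.43 ± 0.09 (adjusted p = 1.22e-16) and TKO by 1.44 ± 0.11 (adjusted p = 1.58e-13), with values of 1.45 and 1.41 against the 2 sets of WT libraries.

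*Lhx1*, a homeobox gene of the anterior streak and axial mesendoderm, was near the limit of detection in mES cells. WT mES cells held 9 counts in 8 libraries, LBRKO 10, TKO none and QKO 1. TKO EpiLCs held 16 counts. Set against the 3 counts that a count of 0 over the 4 TKO mES libraries allows, they were 5.80-fold higher, and with counting error in both groups the 95% interval of the ratio began at 4.19. With no counts in TKO mES cells *Lhx1* was called lower against WT replicates 5 to 8 (adjusted p = 0.0433), and not against replicates 1 to 4 (adjusted p = 0.177) or all 8 (adjusted p = 0.104). In EpiLCs the WT libraries were at 0.103, 0.0646, 0.0781 and 0.0587 CPM in replicates 1 to 4 and at 0.371, 0.202, 0.325 and 0.263 CPM in replicates 5 to 8. QKO EpiLCs were at 0.576, 0.767, 0.819 and 0.588 CPM, above both. LBRKO EpiLCs, between 0.106 and 0.179 CPM, and TKO EpiLCs, between 0.0909 and 0.191 CPM, lay between the WT sets or overlapped the lower.

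QKO EpiLCs exceeded WT by 1.83 ± 0.46 for *Lhx1* (edgeR adjusted p = 0.00099), by 3.13 against replicates 1 to 4 (adjusted p = 5.91e-05) and by 1.24 against replicates 5 to 8 (adjusted p = 0.0215). They exceeded TKO EpiLCs by 2.20 ± 0.61 (adjusted p = 0.0033). In WT the stage difference was 2.51 ± 0.55 (adjusted p = 0.000124), and 1.48 within replicates 1 to 4 (adjusted p = 0.166).

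*Mixl1*, a homeobox gene of the streak, moved little. WT mES cells ran from 0.654 to 1.45 CPM with a median of 0.839 CPM, and WT EpiLCs from 1.33 to 2.23 CPM with a median of 1.46 CPM. The stage difference was 0.77 ± 0.20, under 2-fold, and was called within replicates 1 to 4 (1.22, adjusted p = 0.000339) but not within replicates 5 to 8 (0.42, adjusted p = 0.186). QKO mES cells were at 1.69, 2.15, 1.77 and 1.54 CPM, all above WT, by 0.92 ± 0.24 (edgeR adjusted p = 0.00145), which is under 2-fold. LBRKO mES cells, at 1.53, 1.54, 1.63 and 1.08 CPM, exceeded all WT libraries in 3 of 4 replicates. Against WT replicates 1 to 4 both differences passed 2-fold, at 1.31 in QKO (adjusted p = 0.000271) and 1.01 in LBRKO (adjusted p = 0.00493), and against replicates 5 to 8 neither did, at 0.64 and 0.34.

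*Foxa2*, a pioneer factor gene of endoderm and axial mesendoderm, was under 1 CPM in all 40 libraries. WT mES cells ran from 0.304 to 0.943 CPM with a median of 0.528 CPM. QKO mES cells were at 0.0325, 0.192, 0.0393 and 0.377 CPM, lower by 1.80 ± 0.48 (edgeR adjusted p = 0.00207), though the highest of them overlapped the lowest WT library. LBRKO mES cells lay between 0.234 and 0.375 CPM and TKO between 0.179 and 0.548 CPM, and neither difference passed the test. In EpiLCs all groups overlapped, with WT between 0.117 and 0.498 CPM and the mutants between 0.128 and 0.756 CPM.

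**Figure D3:**
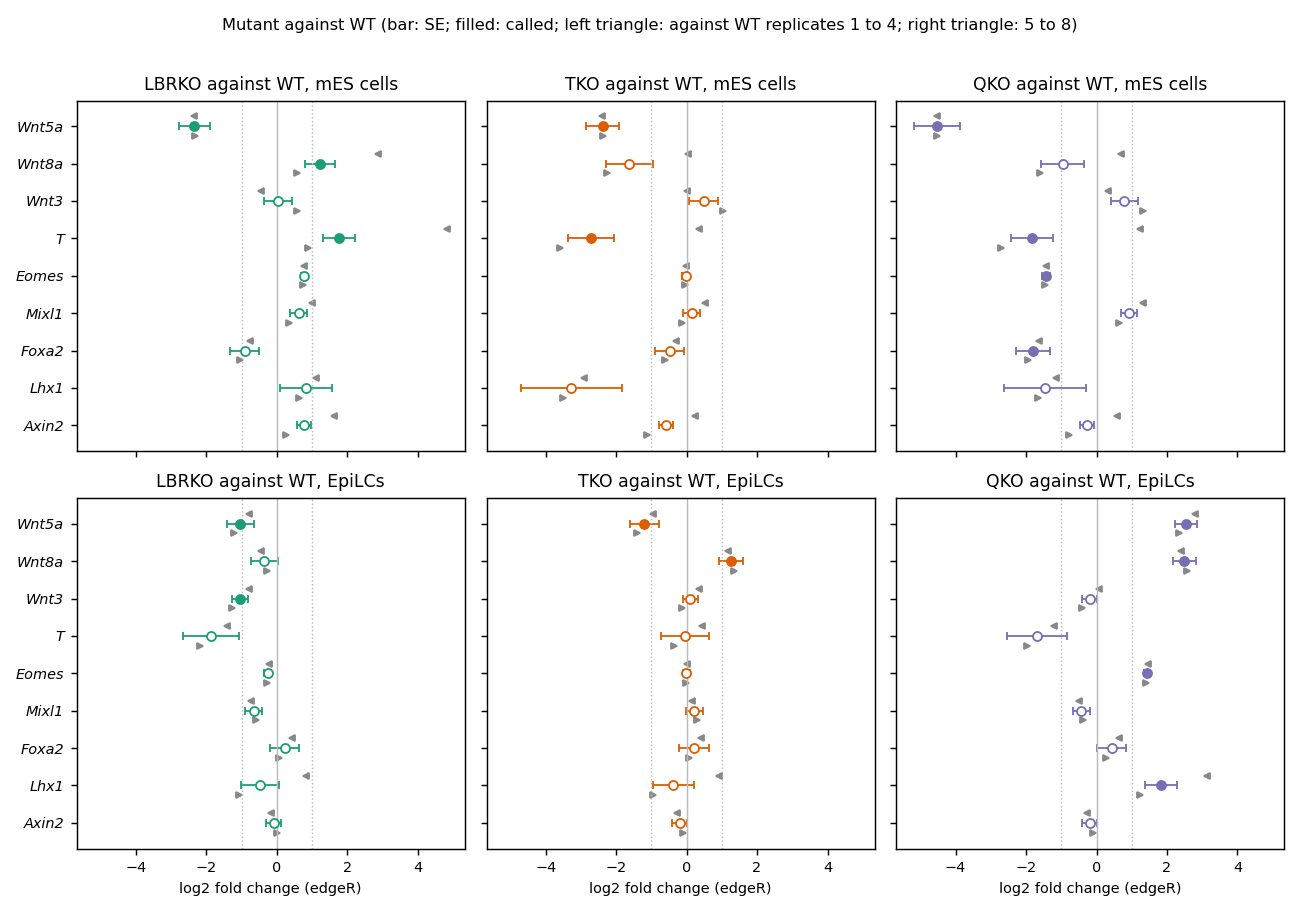
Log2 fold change of each gene in each mutant against WT of the same stage (edgeR, all 8 WT libraries, bars are the SE, filled points passed adjusted p under 0.05 and 2-fold), with triangles for the values against WT replicates 1 to 4 and 5 to 8. The triangles lie far apart for T in mES cells, from 4.83 to 0.89 in LBRKO, and close together for Wnt5a and Eomes.

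Counted together, with a call requiring an adjusted p under 0.05 over all 23399 genes and more than 2-fold, 5 of the 9 genes were called between WT EpiLCs and WT mES cells, where 31.1% of all genes were. In mES cells 3 were called in LBRKO (6.31% of all genes in either direction), 2 in TKO, both lower (3.77% lower), and 4 in QKO, all lower (6.66% lower). In EpiLCs 2 were called in LBRKO, both lower (2.63% lower), 2 in TKO (2.91% in either direction) and 4 in QKO, all higher (13.0% higher). The median difference of the 9 genes was -1.45 in QKO mES cells and 0.43 in QKO EpiLCs, where that of all genes tested was 0.01 and -0.01. The 9 genes were chosen with earlier results of these data known. The shares of all genes, here and below, are therefore given for scale and do not test the set.

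With WT replicates 1 to 4 alone, 5 were called in LBRKO and 1 in TKO mES cells, where 11.1% and 5.63% of all genes were called. With replicates 5 to 8 alone 1 and 5 were called, beside 5.22% and 8.89% of all genes. The 4 calls in QKO EpiLCs were made with either set of WT libraries, in each of the 40 fits that left out a single library, and with DESeq2.

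Whether LBR loss acted differently with and without lamins was tested as the difference between QKO against TKO and LBRKO against WT. In EpiLCs 4 of the 9 genes were called, all with a positive difference, as were 5.09% of all genes. The values were 4.78 ± 0.57 for *Wnt5a* (edgeR adjusted p = 2.16e-08), 1.59 ± 0.54 for *Wnt8a* (adjusted p = 0.0276), 1.69 ± 0.15 for *Eomes* (adjusted p = 2.9e-11) and 2.69 ± 0.81 for *Lhx1* (adjusted p = 0.0129). *Lhx1* was not called with WT replicates 1 to 4 alone (1.38, adjusted p = 0.289), and *Wnt8a* was lost without LBRKO EpiLC replicate 1, QKO EpiLC replicate 4 or TKO EpiLC replicate 3. QKO against TKO itself called *Wnt5a*, *Wnt8a*, *Eomes* and *Lhx1* in EpiLCs, all higher (9.97% of all genes were).

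In mES cells the same term was called for 1 gene, *Eomes*, and in the other direction, in which 3.40% of all genes were called. It was -2.19 ± 0.16 (edgeR adjusted p = 3.41e-14). LBR loss went with more *Eomes* where lamins were present, 11.4 ± 0.896 against 6.70 ± 0.431 CPM (SD, n = 4 and 8), and with less where they were absent, 2.45 ± 0.323 against 6.58 ± 0.774 CPM (n = 4 and 4). *Eomes* was also the only one of the 9 called in QKO against TKO mES cells, where 2.12% of all genes were lower. With WT replicates 1 to 4 alone *T* (-3.95, adjusted p = 4.48e-07) and *Axin2* (-1.29, adjusted p = 5.79e-11) were called for the term as well, and with replicates 5 to 8 alone they were near 0.

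**Figure D4:**
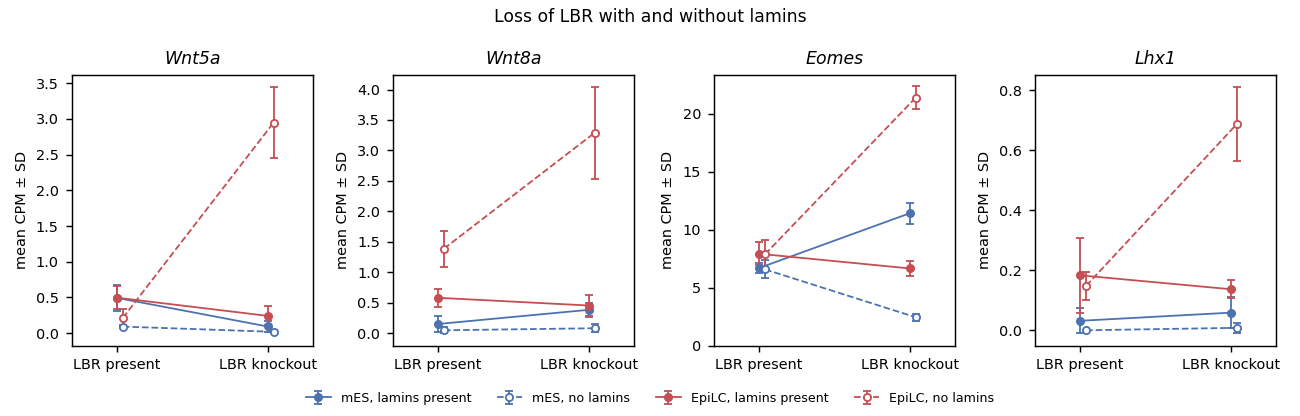
Mean level (CPM, bars are the SD) of Wnt5a, Wnt8a, Eomes and Lhx1 with and without LBR, in cells with lamins (filled points, solid lines; WT and LBRKO) and without (open points, dashed lines; TKO and QKO), for mES cells in blue and EpiLCs in red. The dashed red line rises in all 4 panels, and for Eomes the mES lines start together and part, up to 11.4 CPM with lamins and down to 2.45 CPM without.

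The change from mES cells to EpiLCs was then compared between each mutant and WT. In QKO cells 6 of the 9 genes changed differently (12.6% of all genes). The change was more positive than in WT for *Wnt5a* (7.08 ± 0.69, edgeR adjusted p = 5.28e-11), *Wnt8a* (3.46 ± 0.68, adjusted p = 7.9e-05), *Eomes* (2.88 ± 0.15, adjusted p = 2.83e-19), *Foxa2* (2.23 ± 0.64, adjusted p = 0.00589) and *Lhx1* (3.29 ± 1.27, adjusted p = 0.0463). For *Mixl1* it was more negative (-1.36 ± 0.34, adjusted p = 0.00176). Mean *Foxa2* fell from 0.566 to 0.294 CPM in WT and rose from 0.160 to 0.402 CPM in QKO cells. Mean *Mixl1* rose from 0.932 to 1.61 CPM in WT and fell from 1.79 to 1.18 CPM in QKO cells. The value for *Wnt5a* rests on 2 counts in QKO mES cells, against which QKO EpiLCs held 367, a ratio of 163 with a 95% interval of 44.9 to 1353. *Lhx1* was no longer called with WT replicates 5 to 8 alone or without any of 16 single libraries, and *Wnt8a* not with replicates 1 to 4 alone.

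In LBRKO cells 4 genes changed differently, and all had a more negative change than in WT, as did 2.88% of all genes. They were *T* (-3.64 ± 0.92, edgeR adjusted p = 0.0038), *Wnt8a* (-1.58 ± 0.56, adjusted p = 0.0496), *Mixl1* (-1.28 ± 0.34, adjusted p = 0.00554) and *Eomes* (-1.02 ± 0.14, adjusted p = 3.52e-07). *Wnt8a* and *Mixl1* were not called against WT replicates 5 to 8 (adjusted p = 0.337 and 0.109). The call of *Wnt8a* was lost without any of 30 single libraries, and *Eomes* slipped under 2-fold without any of 4. In TKO cells 1 gene was called as rising more (1.88% of all genes were), *Wnt8a* at 2.88 ± 0.73 (adjusted p = 0.00764), and it was not with WT replicates 1 to 4 (1.13, adjusted p = 0.578).

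Some of these stage terms passed with 1 set of WT libraries only. With replicates 5 to 8 alone *Wnt3* was called in LBRKO (-1.84, edgeR adjusted p = 0.00617) and QKO cells (-1.74, adjusted p = 0.00389) and *T* in TKO cells (3.25, adjusted p = 2.94e-06). With replicates 1 to 4 alone *Axin2* was called in LBRKO (-1.78, adjusted p = 8.48e-14) and *T* in QKO cells (-2.44, adjusted p = 0.00329), where with all 8 *T* was at 0.15 (adjusted p = 0.96).

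The wider pathway was read through lists of known genes. Their counts stand beside the share of all genes called, which was 31.1% between the WT stages, 6.31% in LBRKO, 6.45% in TKO and 17.2% in QKO mES cells, and 5.67%, 2.91% and 21.2% in the EpiLCs of these mutants. Some lists share genes, which are counted in each. *Lef1* and *Tcf7* are in those of target and core genes, and *Rnf43* and *Notum* in those of targets and inhibitors. Of 16 other WNT ligand genes 13 could be tested. Between WT mES cells and EpiLCs 6 were higher and 2 lower, and the median difference was 0.96 where that of all genes was 0.07. *Wnt11* fell by 4.27 ± 0.25 and *Wnt3a* by 3.76 ± 0.35, while *Wnt9a* rose by 2.51 ± 0.22 and *Wnt16* by 1.87 ± 0.27. In CPM per kb, *Wnt5b*, *Wnt11*, *Wnt3a* and *Wnt6* led the ligands in WT mES cells at 1.83, 1.23, 0.49 and 0.48, and *Wnt3* and *Wnt5b* led in WT EpiLCs at 1.80 and 1.41.

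In LBRKO mES cells 6 of the 13 were higher and none lower, with a median of 1.03. They included *Wnt10a* (1.98 ± 0.42), *Wnt7a* (1.90 ± 0.43), *Wnt5b* (1.52 ± 0.24) and *Wnt9a* (1.26 ± 0.25). With WT replicates 1 to 4 alone 5 were higher and with replicates 5 to 8 alone 4. In TKO mES cells 5 were lower and none higher, with 2 and 4 lower against the 2 sets. In QKO mES cells 1 was higher and 4 were lower.

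In QKO EpiLCs 3 of the 13 were higher and 1 was lower, where 21.2% of all genes were called and 13.0% were higher. *Wnt10a* was at 1.19 to 1.67 CPM against 0.103 to 0.303 CPM in WT EpiLCs, higher by 2.91 ± 0.37 (edgeR adjusted p = 9.42e-09). *Wnt6* was at 2.33 to 4.06 CPM against 0.47 to 1.13 CPM, higher by 2.20 ± 0.26 (adjusted p = 2.27e-09). *Wnt5b*, the closest paralogue of *Wnt5a*, went the other way, at 0.813 to 1.77 CPM against 3.28 to 4.31 CPM, lower by 1.67 ± 0.30 (adjusted p = 7.38e-06). LBRKO EpiLCs had 1 ligand gene higher and TKO EpiLCs 1 lower.

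**Figure D5:**
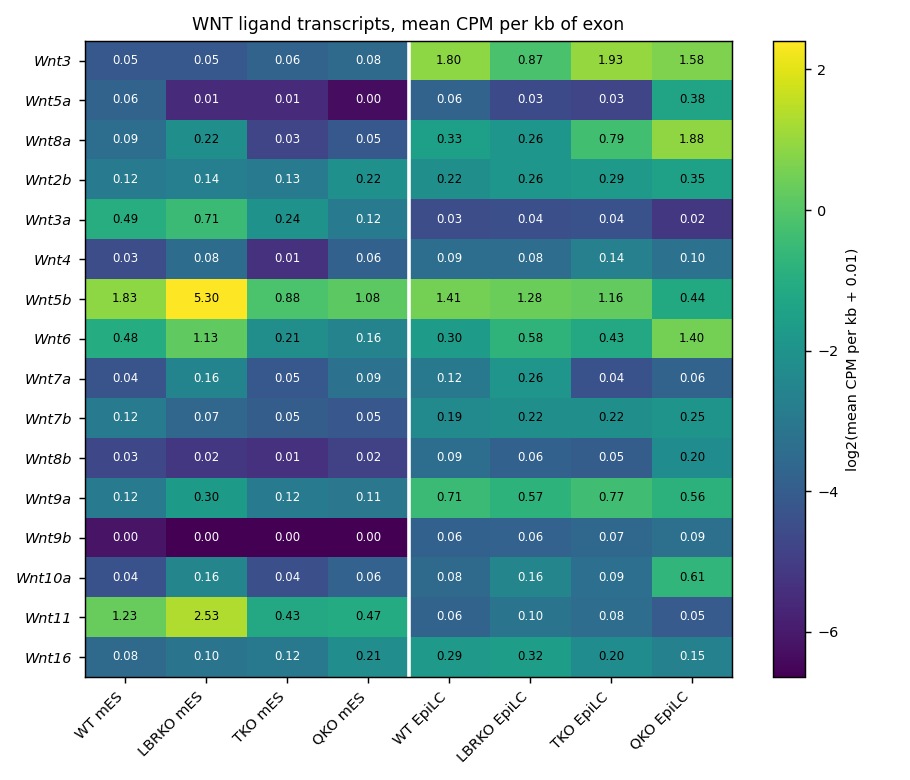
Mean level of the 16 WNT ligand genes that could be tested in the 8 groups, in CPM per kb of exon (numbers in the cells) with the colour on a log2 scale. Wnt3 is bright only right of the white line, in EpiLCs, Wnt5b and Wnt11 are brightest in LBRKO mES cells at 5.30 and 2.53, and Wnt8a is brightest in QKO EpiLCs at 1.88.

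Ligand secretion needs PORCN, which attaches the lipid, and WLS, which carries the protein to the surface. Both genes were lower in WT EpiLCs than in WT mES cells, *Wls* by 1.24 ± 0.09. Compared with WT EpiLCs *Wls* was lower again in LBRKO EpiLCs, by 1.36 ± 0.12 (edgeR adjusted p = 2.81e-12), in which *Wnt3* was low, and in QKO EpiLCs, by 1.63 ± 0.12 (adjusted p = 9.94e-15), in which *Wnt5a* and *Wnt8a* were high.

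Of 19 receptor and coreceptor genes 10 were higher and 3 lower in WT EpiLCs than in WT mES cells. *Fzd7* (2.42 ± 0.07) and *Lgr5* (3.42 ± 0.42) were among those higher. *Ror1* and *Ror2*, which encode receptors of WNT5A and were picked out after their values had been seen, rose by 2.61 ± 0.23 and fell by 1.99 ± 0.07. In mES cells *Ror1* was lower in LBRKO (-2.53 ± 0.37), TKO (-2.74 ± 0.41) and QKO cells (-5.10 ± 0.57), the mutants in which *Wnt5a* was low, though the LBRKO libraries overlapped WT. In EpiLCs 1 receptor gene was called in QKO, *Fzd9* (-1.52 ± 0.17), and none in LBRKO or TKO.

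Of 17 known target genes of beta-catenin, not counting the 9 genes, 5 were higher and 2 lower in LBRKO mES cells, none higher and 6 lower in TKO, and none higher and 4 lower in QKO mES cells. Those in LBRKO included *Nkd1* (1.61 ± 0.14), *Rnf43* (1.32 ± 0.32) and *Cdx1* (1.31 ± 0.25), and *Notum* was lower (-1.54 ± 0.19). Those in TKO included *Sp5* (-2.45 ± 0.40), *Cdx1* (-2.04 ± 0.30) and *Sp8* (-1.35 ± 0.25). As for *Axin2* and *T*, the counts turned on the WT libraries. Against replicates 1 to 4, 9 were higher and 1 lower in LBRKO, none in either direction in TKO, and 3 higher and 1 lower in QKO. Against replicates 5 to 8, 2 were higher and 2 lower in LBRKO, 10 lower in TKO and 7 lower in QKO, with none higher in the last 2. The share of all genes called in LBRKO, TKO and QKO was 11.1%, 5.63% and 18.2% against replicates 1 to 4 and 5.22%, 8.89% and 16.6% against replicates 5 to 8. The core genes of the pathway, 15 genes of beta-catenin, its destruction complex and the TCF factors, had none called in LBRKO mES cells and 1, *Lef1*, in each of TKO and QKO, with libraries that overlapped WT.

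In QKO EpiLCs *Wnt5a* and *Wnt8a* were higher and *Wnt3* was not called. The 16 other ligand genes summed to 11.2 to 15.8 CPM there and to 10.3 to 14.2 CPM in WT EpiLCs. Of all genes 21.2% were called in QKO EpiLCs, with 13.0% higher and 1909 of 23399 lower. None of the 17 target genes was higher there and 3 were lower, *Nkd1* (-1.57 ± 0.16), *Rnf43* (-1.35 ± 0.43) and *Tcf7* (-1.09 ± 0.07). The list's median was -0.51 where that of all genes was -0.01. With WT replicates 1 to 4 alone 1 was higher and 3 were lower. *Axin2* itself lay at 13.3, 13.8, 15.3 and 15.8 CPM. *Rnf43* is also among the inhibitor genes that follow and is counted in both lists. Of 13 tested genes of secreted and membrane WNT inhibitors, none was higher and 5 were lower in QKO EpiLCs, among them *Sfrp1*, whose product binds WNT proteins outside the cell, at 6.67 to 9.99 CPM against 16.8 to 32.3 CPM in WT (-1.63 ± 0.13, edgeR adjusted p = 7.74e-14).

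The other genes of primitive streak and mesoderm, and of definitive endoderm, were called in both directions in QKO EpiLCs, where *Eomes* and *Lhx1* were higher. There 21.2% of all genes were called, with 13.0% higher and 1909 of 23399 lower. Of 15 tested streak and mesoderm genes 1 was higher, *Pdgfra* (2.56 ± 0.27), and 3 were lower, including *Hand1* (-1.39 ± 0.35) and *Cdh2* (-1.10 ± 0.25). Of 9 tested definitive endoderm genes 1 was higher, *Gata6* (2.96 ± 0.27), and 2 were lower, including *Foxa3* (-1.43 ± 0.17). *Msgn1*, *Mesp1*, *Rspo3* and *Cer1* were too low to be tested. Genes of Nodal and activin signalling, which acts upstream of *Eomes* and is switched on by the activin in the medium, had none of 13 called in QKO EpiLCs, with a median of -0.11.

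Markers of other lineages that express some of these genes were examined beside them. *Eomes* is also a trophectoderm marker, and *Gata6* and *Pdgfra* are also primitive endoderm markers. In QKO EpiLCs, with 13.0% of all genes higher and 21.2% called in either direction, 3 of 12 primitive endoderm markers were higher, *Hnf4a* (4.31 ± 0.24), *Gata6* and *Pdgfra*, and 2 were lower, among them *Sox7* (-2.27 ± 0.42), and none was at 0. Their summed level was 267 to 285 CPM in QKO EpiLCs and 325 to 407 CPM in WT EpiLCs. Of 11 trophectoderm markers 2 were higher, *Eomes* and *Gata3* (2.09 ± 0.25), and 2 were lower, *Krt18* and *Hand1*, with summed levels of 48.6 to 54.6 CPM against 49.9 to 60.5 CPM, and none was at 0. In LBRKO mES cells, where *T* and *Eomes* were high, 5 of 12 primitive endoderm markers were higher and 1 was lower, with a sum of 225 to 328 CPM against 174 to 239 CPM in WT, and 6.31% of all genes were called there. The part of such cells in these results was not tested.

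The genes whose level across the 40 libraries was most like that of each member were found by Pearson's r of log2(CPM + 0.1) among 13794 genes. Stage, depth and the WT sets are shared by all such pairs. *Axin2* was closest to *Htr5a* (0.981), *Cdx1* (0.980) and *Slc6a8* (0.976), and *Wnt3* to *Doc2a* (0.980), *Ramp3* (0.978) and *Jph1* (0.978). *T* was closest to *Cavin3* (0.892), *Zfp703* (0.883) and *Plcl2* (0.877), and *Wnt8a* to *Nup50* (0.897), *Trp73* (0.892) and *Ftx* (0.892). *Wnt5a* was closest to *Raet1e* (0.871), *Itm2a* (0.845) and *Gfra3* (0.836), *Eomes* to *Trp53i11* (0.869), *Ppp1r16b* (0.847) and *Pdcd6ip* (0.847), and *Lhx1* to *Plcxd1* (0.908), *Ebf3* (0.894) and *Tsr1* (0.893). For *Mixl1* and *Foxa2* the highest values were 0.721 and 0.561.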

How the data were processed

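Total RNA from each well had been made into libraries with a stranded kit after removal of ribosomal RNA. The deposited values were whole-number counts per gene, which the authors made with cutadapt 2.5, STAR 2.7.10a on GRCm39 with unique alignments, and featureCounts 1.6.4 on GENCODE M30. The strand setting is not given in the sources used here. A second deposited count table, in which the authors also counted multimapping reads, served as an alternative.

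Groups were taken from the labels. Counts were tested with edgeR 4.0.16 in R 4.3.3 (quasi-likelihood test, TMM scaling, filterByExpr, all 40 libraries in 1 fit), with Benjamini-Hochberg adjustment over the 23399 genes tested in each of 14 comparisons. A gene was called at an adjusted p under 0.05 and more than 2-fold. All differences are log2 fold changes ± SE. The alternatives were DESeq2 1.42.0, its size factors, other filters and thresholds, subsets of libraries and a replicate block. Symbols came from GENCODE M39, which matched 56017 of the 56748 identifiers.

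The 9 genes and the lists were chosen with earlier results of these data known. All 9 were named throughout. From a list the text could name up to 4 genes in a comparison, those called, without overlap between the groups, in order of fold, and for likeness the 3 genes with the highest r among those reaching 1 CPM in some group. The test was tried on simulated data, in which 174 of 200 changed genes were called for QKO against WT mES cells among 23399 genes. Libraries held 22.6 to 48.9 M gene counts, so 1 CPM is at least 22.6 counts before scaling, and intervals and count limits cover counting error only.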

Additional observations from a re-analysis of the deposited data

Results flagged for a closer look

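In 2 of 72 groups of libraries 1 value stood apart from the rest of its group, where chance alone flags about 1 in 20 groups. *Mixl1* was at 1.67 CPM in LBRKO EpiLC replicate 3, and the nearest of the other 3 libraries was at 0.817 CPM. Without that library *Mixl1* was called lower in LBRKO than in WT EpiLCs (-1.01, edgeR adjusted p = 0.00257). *Lhx1* was at 0.0325 CPM in QKO mES replicate 1, which is 1 count, and at 0 in the other 3.

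Of 27 tests of whether a mutant changed between the stages unlike WT, 11 passed. In LBRKO cells the difference of the stage differences was -1.58 for *Wnt8a*, -3.64 for *T*, -1.02 for *Eomes* and -1.28 for *Mixl1*. In TKO cells it was 2.88 for *Wnt8a*. In QKO cells it was 7.08 for *Wnt5a*, 3.46 for *Wnt8a*, 2.88 for *Eomes*, -1.36 for *Mixl1*, 2.23 for *Foxa2* and 3.29 for *Lhx1*. The shares of all genes called for these differences are given in the Results, for scale. Not all of these passes held. *Wnt8a* and *Eomes* in LBRKO and *Lhx1* in QKO cells lost their call without some single libraries. *Wnt8a* in every mutant, *Mixl1* in LBRKO and *Lhx1* in QKO cells lost it with a single set of WT libraries.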

How the results depend on the processing

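Over the 9 genes and 14 comparisons there were 126 differences. The direction and the call were kept for 126 with multimapping reads counted, 125 with DESeq2 size factors, 123 with the DESeq2 Wald test, 119 with no filter, 114 with only the groups compared, 105 with WT replicates 1 to 4, 110 with replicates 5 to 8, and 97 of 98 with at least 1 CPM in 4 libraries. Of 5040 values that each left out 1 library, 4946 kept theirs and none reversed.

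The WT libraries mattered most. With replicates 1 to 4 alone *T* reversed to 0.35 (edgeR adjusted p = 0.648) in TKO and 1.23 (0.0097) in QKO mES cells and to -2.44 (0.00329) for the QKO stage difference, 5 genes were called in LBRKO and 1 in TKO mES cells (11.1% and 5.63% of all genes), 1 each in LBRKO and TKO EpiLCs (6.76% and 2.15%), 0 for the TKO stage difference (2.62%) and 3 for the lamin and LBR term in mES cells (8.46%). With replicates 5 to 8 alone 1 was called in LBRKO and 5 in TKO mES cells (5.22% and 8.89%) and 2 for the TKO stage difference (4.09%). Without the filter 1 was called in LBRKO and in TKO EpiLCs (3.26% and 1.62%) and 2 for the LBRKO and TKO stage differences (2.97% and 1.52%). In fits of the compared groups alone 1 was called in LBRKO mES cells and TKO EpiLCs (5.14% and 2.46%) and 2 for the LBRKO stage difference (5.44%). DESeq2 called 2 for the TKO stage difference (3.28%). It also called *T* lower in LBRKO EpiLCs (-1.88, DESeq2 adjusted p = 0.0373) and in QKO EpiLCs (-1.67, DESeq2 adjusted p = 0.047). At 1.5-fold 6 were called in LBRKO mES cells and 2 in QKO against TKO mES cells (11.8% and 10.7%). The cause was not tested.

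Same-numbered libraries were not paired in the main fit, and in no pair of groups did all of them correlate over 0.1. There were 3 of 8 over it between WT mES cells and WT EpiLCs (0.0402 to 0.192), 2 of 4 between the LBRKO stages (0.0595 to 0.158) and 1 of 4 between WT and LBRKO mES cells (-0.109 to 0.115). Between the stages all values were positive in WT, LBRKO and TKO cells but not in QKO cells. The check cannot tell whether same-numbered libraries share an origin. Only WT has replicates numbered above 4, so the replicate block also takes up the difference between the sets of WT libraries. The part of pairing in its values was not tested. With the replicate block, 114 differences kept direction and call, *T* reversed to 0.31 (edgeR adjusted p = 0.617) in QKO mES cells and 1.73 (0.0369) in TKO EpiLCs, and 1 gene was called in TKO mES cells, 0 in LBRKO EpiLCs, 2 for the TKO stage difference and 2 for the lamin and LBR term in mES cells (5.64%, 7.15%, 3.35% and 8.47% of all genes). The calls lost were *T* in TKO mES cells (-0.56, adjusted p = 0.537), *Wnt3* (-0.94, under 2-fold, 0.00246) and *Wnt5a* (-0.96, 0.0644) in LBRKO EpiLCs, *Wnt5a* in TKO EpiLCs (-1.13, 0.0844) and *Lhx1* for the lamin and LBR term in EpiLCs (1.65, 0.201). Calls gained were *Axin2* in LBRKO mES cells (1.21, 2.6e-06) and *Mixl1* in QKO mES cells (1.06, 0.000914). *T* was also gained for QKO against TKO EpiLCs (-1.64, 0.0467), the TKO stage difference (2.29, 0.0215) and the lamin and LBR term in mES cells (-3.05, 0.000935). The value of 1.73 for *T* in TKO EpiLCs is not seen in the levels. Mean *T* was 0.333 CPM in TKO EpiLCs, 0.334 CPM in WT EpiLCs and 0.248 CPM in WT EpiLC replicates 1 to 4.

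Leaving out 1 library gave 0 to 2 calls in LBRKO EpiLCs (none without WT EpiLC replicate 8), 1 to 2 in TKO EpiLCs, 1 to 3 in QKO against TKO mES cells (3 without TKO mES replicate 2), 2 to 4 for the LBRKO and 1 to 2 for the TKO stage difference, and 4 in QKO EpiLCs throughout. *Lhx1*, *Wnt8a* and *Wnt5a* in mES cells rest on few counts, which limits what could be seen there.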
